A study of Mus musculus with 3 samples.

Results

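The genes described here carry glucose into the cell and break it down, divert it into the pentose phosphate pathway, export lactate, or sense oxygen through hypoxia-inducible factor (HIF). They were chosen by name, 38 in all, and each was read through its brightest probe set among those that name 1 gene. Of the 38 genes, 34 were measured, out of 17886 genes in the whole table; Gpi1, Pfkfb1, Eno1 and G6pdx were not analysed here. Signals are on a log2 scale, and the median of all signals, 5.58, was taken as a floor below which no order was read. Epas1 lay at the floor on every array, 33 members were above it on at least 1 array, and 32 were above it on all 3.

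The cells were wild-type mouse dendritic cells (DCs), the cells that capture antigen and present it to T cells. They were grown from bone marrow over 5 days in GM-CSF, a growth factor for myeloid cells, and then sorted by flow cytometry on PDL2, a surface ligand of the inhibitory receptor PD-1. There were 3 groups with 1 array each: PDL2-negative cells stimulated after the sort with lipopolysaccharide (LPS, a bacterial ligand of Toll-like receptor 4) at 100 ng/ml, untreated PDL2-positive cells, and untreated PDL2-negative cells. All groups shared the growth factor, and stimulated PDL2-positive cells were not analysed here. The number of mice behind each array and the length of the LPS stimulation are not given in the sources used here. With 1 array a group there is no replicate check and no p-value, so a gene is called higher or lower at a difference of 2-fold (1 on the log2 scale) or more. The only spread that can be given is between probe sets read on the same arrays. Differences read from the 2 brightest probe sets of a gene disagreed with a robust SD of 0.41 after LPS, on the log2 scale. The SD was 0.29 between untreated PDL2-positive and PDL2-negative cells, and 0.44 between PDL2-positive and LPS-stimulated cells. It does not measure variation between arrays or between cell preparations.

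Glycolysis turns glucose into pyruvate in the cytosol with a small yield of ATP. Hexokinase traps glucose as its phosphate, phosphofructokinase commits it to breakdown, and lactate dehydrogenase turns pyruvate into lactate, which leaves the cell through monocarboxylate transporters. The pentose phosphate pathway branches off after hexokinase and yields NADPH and ribose, and the HIF transcription factors, which prolyl hydroxylases mark for destruction when oxygen is present, switch on many genes of glycolysis. DCs stimulated through Toll-like receptors are known for an early rise in glycolytic activity that feeds fatty acid synthesis and secretion.

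The sort and the labels were checked first. Pdcd1lg2, which encodes PDL2, had log2 signals of 9.44 in LPS-stimulated PDL2-negative cells, 11.73 in PDL2-positive cells and 8.40 in untreated PDL2-negative cells. All 8 DC markers looked for were above the floor on every array, and against untreated PDL2-negative cells 4 were higher in PDL2-positive cells (Flt3, Zbtb46, Dpp4 and Ccr7) and 1, Itgax, was 3.18-fold lower. Macrophage markers were called lower in PDL2-positive than in untreated PDL2-negative cells for 8 of 8 genes, with summed linear signals of 1935 in PDL2-positive and 47578 in untreated PDL2-negative cells, and 35558 in LPS-stimulated cells; of these markers only Mrc1 fell to the floor in PDL2-positive cells. Monocyte markers were lower there for 5 of 5 genes (summed signals 1502 in PDL2-positive and 9981 in untreated PDL2-negative cells), and cell cycle genes for 7 of 11, with Mki67 at 6.21 in PDL2-positive cells and 10.65 in untreated PDL2-negative cells. After LPS, 7 of 9 neutrophil and granulocyte precursor markers were lower (summed signals 7913 in LPS-stimulated and 18826 in untreated cells), as were 7 of 11 cell cycle genes. Markers of mast cells and basophils summed to 653 in LPS-stimulated, 1467 in PDL2-positive and 550 in untreated PDL2-negative cells, with Fcer1a at the floor throughout; of these markers only Kit was called between untreated PDL2-positive (9.78) and PDL2-negative cells (6.26), and Cpa3, Mcpt8 and Gata2 stayed under 2-fold. Of the measured lymphocyte and NK cell markers only Cd3e, and of the erythroid markers only Epor, lay above the floor. The part of these markers in the differences below was not tested, and in sorted populations fewer cells of a type and less RNA per cell cannot be told apart.

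Since many of the members are textbook targets of HIF or Myc, the stretch just before the start of transcription is shown for a few of them. Pfkfb3 was higher in both comparisons with untreated PDL2-negative cells. Slc2a1 and Hk2 were low in PDL2-positive cells, and Eno3 was high only there by the 2-fold rule. Capitals mark the core letters of the HIF response element, ACGTG or GCGTG, on either strand, so that CACGT and CACGC are matches on the opposite strand. The 250 bases before each annotated start are given 5′ to 3′ in the direction of the gene, from RefSeq on GRCm38.p6.
Pfkfb3, upstream start (chr2:11553930-11554179, minus strand): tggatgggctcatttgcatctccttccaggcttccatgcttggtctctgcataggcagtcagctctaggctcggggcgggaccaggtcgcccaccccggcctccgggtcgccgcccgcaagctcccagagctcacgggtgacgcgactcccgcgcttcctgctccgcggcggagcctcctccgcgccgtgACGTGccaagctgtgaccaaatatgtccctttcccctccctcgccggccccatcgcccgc
Pfkfb3, downstream start (chr2:11502091-11502340, minus strand): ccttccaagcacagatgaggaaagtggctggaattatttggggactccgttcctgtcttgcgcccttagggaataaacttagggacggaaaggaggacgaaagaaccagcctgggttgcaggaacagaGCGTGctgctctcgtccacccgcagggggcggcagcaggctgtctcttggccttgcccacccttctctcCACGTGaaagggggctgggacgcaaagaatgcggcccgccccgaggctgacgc
Slc2a1 (chr4:119108495-119108744, plus strand): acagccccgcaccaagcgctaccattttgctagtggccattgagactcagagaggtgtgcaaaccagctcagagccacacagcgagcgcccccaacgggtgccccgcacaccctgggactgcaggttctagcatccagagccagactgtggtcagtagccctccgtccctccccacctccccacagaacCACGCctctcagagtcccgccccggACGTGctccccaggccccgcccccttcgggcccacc
Hk2 (chr6:82774455-82774704, minus strand): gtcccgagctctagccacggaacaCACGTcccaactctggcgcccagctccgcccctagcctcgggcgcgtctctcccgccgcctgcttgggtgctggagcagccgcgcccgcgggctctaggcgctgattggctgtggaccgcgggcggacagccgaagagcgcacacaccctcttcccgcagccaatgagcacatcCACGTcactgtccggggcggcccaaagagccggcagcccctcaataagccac
Eno3 (chr11:70656926-70657175, plus strand): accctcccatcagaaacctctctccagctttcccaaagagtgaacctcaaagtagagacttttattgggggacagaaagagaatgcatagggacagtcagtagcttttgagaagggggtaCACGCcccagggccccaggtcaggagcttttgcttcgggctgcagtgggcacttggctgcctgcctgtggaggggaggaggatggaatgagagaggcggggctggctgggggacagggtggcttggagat

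Each printed window held 1 or 2 stretches with the core. This does not hold for every called member: the window of Eno2, not printed, held 0. Eno2, like Eno3, was called higher only in PDL2-positive cells. The windows of Hk3 and Aldoc, also not printed, held 1 each. In the downstream Pfkfb3 window 2 overlapping matches form CACGTG, the palindrome that is also the E-box bound by Myc and its relatives. Over 36 member genes with a listed promoter, 43 of 55 windows (78.2%) held at least 1 core match, compared with 54.8% of 11720 windows of genes above the floor and 38.6% of all 32851 windows. CACGTG was in 8 of the 55 member windows (14.5%) and in 8.31% of the windows of genes above the floor. The member windows include those of Gpi1, Pfkfb1, Eno1 and G6pdx, which have no signal here, so the sets are not alike. Overlapping windows of 1 gene, as for Aldoa and Eno1, were counted separately. Base composition was not matched between these sets, and a match of 5 letters is a description of the sequence, not a binding site. Whether HIF or Myc acts through any of these windows in these cells was not tested.

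**Figure D1:**
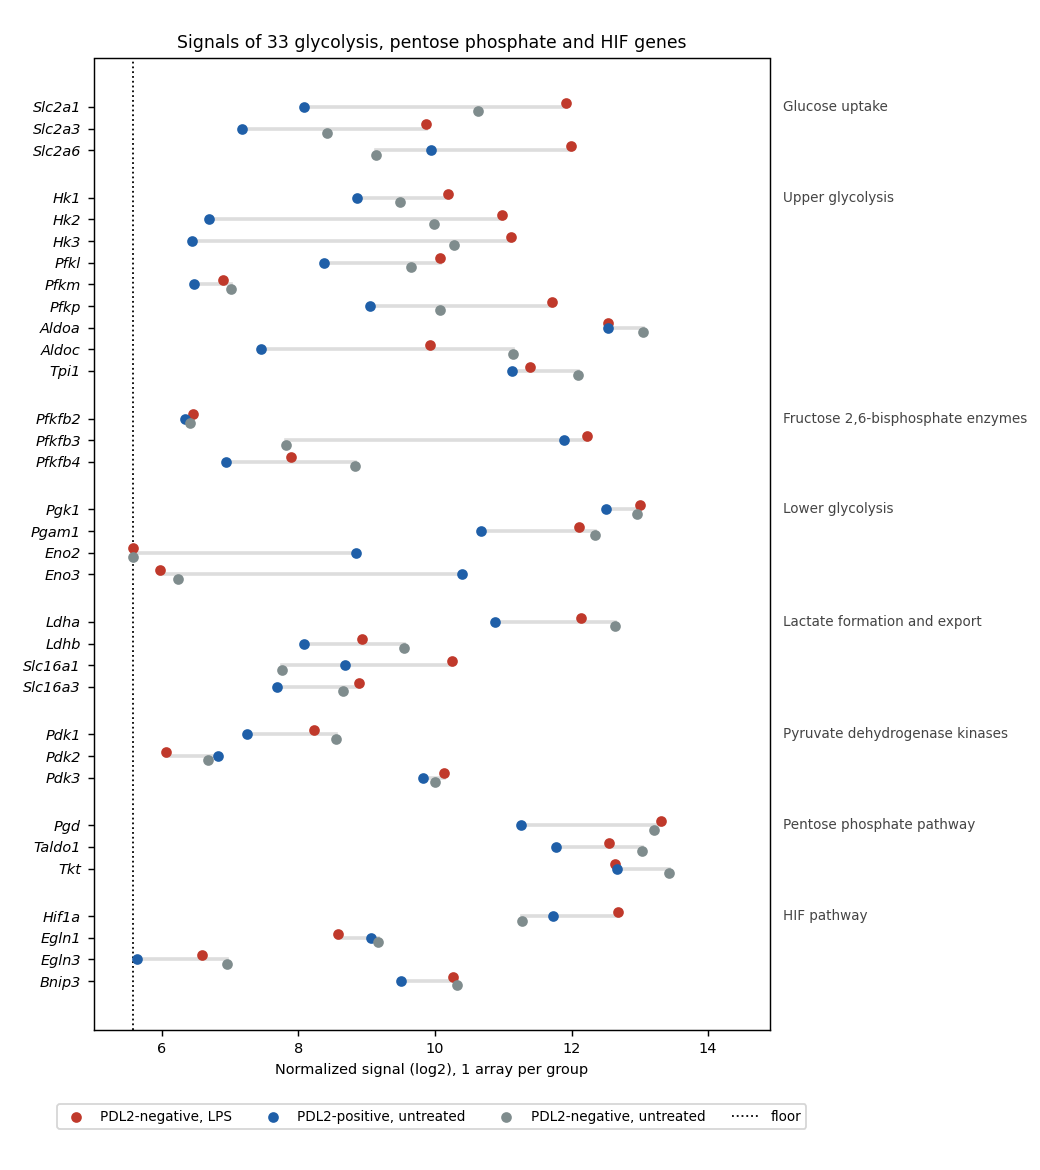
Normalized log2 signal (horizontal axis) of the 33 members above the floor on at least 1 array, by role, with 1 point per array and a small vertical offset between the arrays. The PDL2-positive array has the lowest point for 23 of the 33 genes, while Eno2 and Eno3 have their highest point there, and Pfkfb3 is low only in untreated PDL2-negative cells.

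The first question was how LPS altered these genes in PDL2-negative cells. Stimulated cells had higher signals for all 3 glucose transporters, for the platelet-type phosphofructokinase Pfkp, for Pfkfb3, for the monocarboxylate transporter Slc16a1 and for Hif1a, and a lower signal for Aldoc. Of 32 members with a signal over the floor, 8 passed 2-fold (25%): 7 upward (21.9%) and 1 downward (3.13%). Of all 11000 genes tested, 23% passed 2-fold, 9.17% upward and 13.8% downward. The median difference of the members was -0.00 on the log2 scale, against 0.02 over all genes tested, with 16 members above 0 and 16 below. Without the normalization between arrays, the median of the members after LPS was -0.08 and that of all genes was -0.09, and Hk2 (1.02) and Pfkfb4 (-1.13) then passed 2-fold.

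The second question was how untreated PDL2-positive cells differed from untreated PDL2-negative cells. Here 15 of 33 members (45.5%) were lower and 3 (9.09%) were higher by 2-fold, where 13% of all 10926 genes tested were lower and 10.1% were higher, 23% in all. The median difference of the members was -0.97 on the log2 scale, against 0.01 over all genes tested, and 26 of the 33 members had a negative difference. The lower members were Slc2a1, Slc2a3, Hk2, Hk3, Pfkl, Pfkp, Aldoc, Pfkfb4, Pgam1, Ldha, Ldhb, Pdk1, Pgd, Taldo1 and Egln3. The higher ones were Pfkfb3, Eno2 and Eno3.

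Set against LPS-stimulated PDL2-negative cells, untreated PDL2-positive cells were lower by 2-fold for 14 of 33 members (42.4%) and higher for 2 (6.06%), where 12.6% of all 11042 genes were lower and 15.6% were higher, 28.2% in all. The median of the members was -0.95 on the log2 scale, against -0.05 over all genes tested. The 3 comparisons use 3 arrays in all, so any pair of them shares an array and they are not independent. In strict order, the PDL2-positive array held the lowest of the 3 signals for 23 of 33 members (69.7%), and for 29.8% of 11230 genes above the floor on at least 1 array. LPS-stimulated cells held the highest signal for 16 members (48.5%), and for 40.0% of all those genes. Untreated PDL2-negative cells held it for 14 members (42.4%), and for 28.4% of all those genes.

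**Figure D2:**
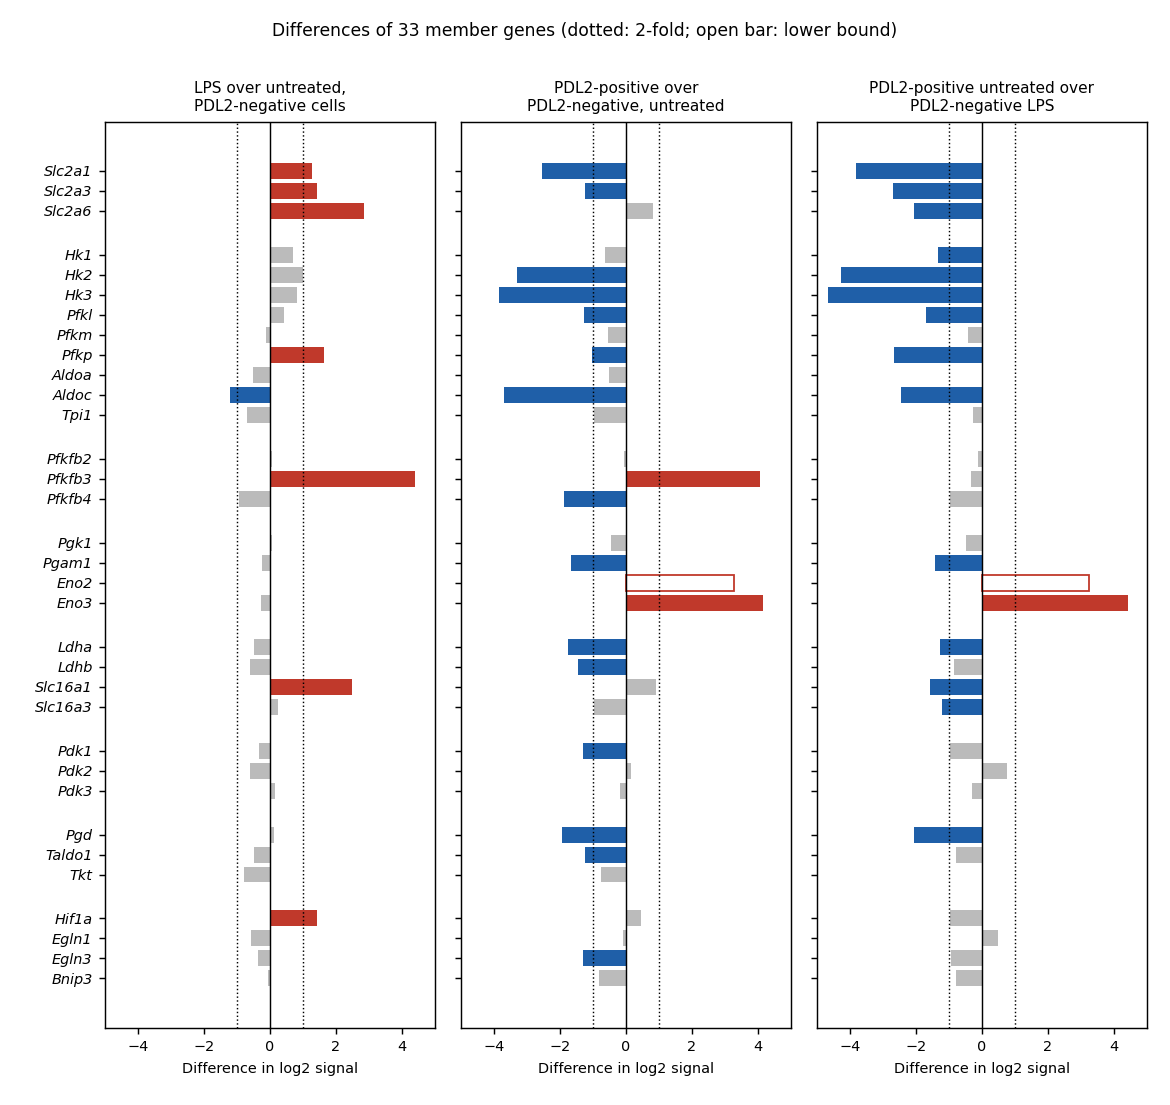
Difference in log2 signal (horizontal axis) for each of the 33 members in the 3 comparisons, red where higher and blue where lower by 2-fold, grey otherwise. Blue bars fill the middle and right panels, where 15 and 14 members are lower, and the left panel has 7 red bars and 1 blue; the open bars of Eno2 are lower bounds because its signal was at the floor in PDL2-negative cells.

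Glucose enters these cells through facilitative transporters. Slc2a1, which encodes the widespread transporter GLUT1, had log2 signals of 11.91 in LPS-stimulated PDL2-negative cells, 8.08 in PDL2-positive cells and 10.63 in untreated PDL2-negative cells. It was thus 2.43-fold higher with LPS and 5.86-fold lower in PDL2-positive cells than in untreated PDL2-negative cells, and each of its 3 probe sets passed 2-fold in both comparisons. Slc2a3, which encodes the high-affinity transporter GLUT3, followed the same order, with signals of 9.86, 7.17 and 8.42 in LPS-stimulated, PDL2-positive and untreated PDL2-negative cells, and its PDL2-positive difference was bounded only at -0.62 or lower (log2 scale), and so not called, when the floor was set at the 75th percentile of all signals.

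The third transporter differed. Slc2a6, which encodes GLUT6, a transporter found on lysosomal membranes in macrophages, had signals of 11.99 in LPS-stimulated cells, 9.94 in PDL2-positive cells and 9.13 in untreated PDL2-negative cells. It was 7.24-fold higher with LPS, and its difference between untreated PDL2-positive and PDL2-negative cells (0.81 on the log2 scale) stayed under 2-fold. PDL2-positive cells were lower than LPS-stimulated cells for all 3 transporters, by 14.2-fold for Slc2a1, 6.47-fold for Slc2a3 and 4.13-fold for Slc2a6.

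Hexokinases phosphorylate glucose and so keep it in the cell. Hk2, the inducible hexokinase that binds mitochondria, had a signal of 10.97 in LPS-stimulated cells, 6.69 in PDL2-positive cells and 9.98 in untreated PDL2-negative cells. Its difference after LPS was 0.99 on the log2 scale, just under 2-fold, and PDL2-positive cells lay 9.80-fold below untreated PDL2-negative cells. Hk3, the hexokinase of myeloid cells, had signals of 11.12, 6.44 and 10.28 in the same order, which made it 14.4-fold lower in PDL2-positive than in untreated PDL2-negative cells. A second Hk3 probe set gave a smaller difference, -2.39 in place of -3.85 on the log2 scale. Hk1, the constitutive hexokinase, moved less, with 10.19 in LPS-stimulated cells, 8.86 in PDL2-positive cells and 9.49 in untreated PDL2-negative cells. All 3 hexokinase genes had their highest signal with LPS and their lowest in PDL2-positive cells.

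Phosphofructokinase makes fructose 1,6-bisphosphate, the committed step of glycolysis, from liver, muscle and platelet subunits. Pfkp had signals of 11.72 in LPS-stimulated cells, 9.04 in PDL2-positive cells and 10.07 in untreated PDL2-negative cells, and was 3.14-fold higher with LPS. Its decrease in PDL2-positive relative to untreated PDL2-negative cells (1.03 on the log2 scale) barely passed 2-fold, and its other probe set above the floor gave -0.74. Pfkl had 10.07 in LPS-stimulated cells, 8.37 in PDL2-positive cells and 9.64 in untreated PDL2-negative cells, a 2.42-fold decrease in PDL2-positive cells. For Pfkl, 2 of 3 probe sets were lower by 2-fold in PDL2-positive cells and the dimmest, near the floor, gave 0.35. Pfkm, the muscle subunit, had differences between -0.54 and -0.11 on the log2 scale over the 3 comparisons.

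Aldolase splits the 6-carbon sugar and triosephosphate isomerase interconverts the products. Aldoc, an aldolase best known from brain, was the only member called lower both with LPS and in PDL2-positive cells: 9.92 in LPS-stimulated cells and 7.46 in PDL2-positive cells, against 11.15 in untreated PDL2-negative cells. That is 2.34-fold lower with LPS and 12.9-fold lower in PDL2-positive cells, and a second probe set gave -0.83 with LPS and -2.53 or lower in PDL2-positive cells, where it was below the floor (log2 scale). Aldoa, the main aldolase of most tissues, had 12.53 in LPS-stimulated cells, 12.54 in PDL2-positive cells and 13.04 in untreated PDL2-negative cells, under 2-fold throughout. Tpi1 had 11.39 in LPS-stimulated cells, 11.13 in PDL2-positive cells and 12.10 in untreated PDL2-negative cells. Its PDL2-positive difference of -0.97 fell just short of the threshold, and the probe sets of Tpi1 ran from -1.03 to -0.97.

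The Pfkfb enzymes make and break fructose 2,6-bisphosphate, the strongest activator of phosphofructokinase. Pfkfb3, whose product has mostly kinase activity and so raises that activator, had signals of 12.23 in LPS-stimulated cells and 11.88 in PDL2-positive cells, against 7.82 in untreated PDL2-negative cells. It was 21.1-fold higher with LPS and 16.7-fold higher in PDL2-positive cells, and the difference between PDL2-positive and LPS-stimulated cells was -0.34 on the log2 scale. Its second probe set gave 4.40 after LPS and 3.34 between untreated PDL2-positive and PDL2-negative cells. Between PDL2-positive and LPS-stimulated cells that probe set gave -1.05, past 2-fold, so the 2 probe sets disagreed on the size of this difference. Pfkfb4, a related enzyme that is itself a HIF target, went the other way, with 7.89 in LPS-stimulated cells, 6.94 in PDL2-positive cells and 8.83 in untreated PDL2-negative cells. It was 3.71-fold lower in PDL2-positive cells. Pfkfb2, the heart-type enzyme, had signals between 6.34 and 6.46 on all 3 arrays. Among the uptake genes and the upper steps of glycolysis, Pfkfb3 was the only one called higher in PDL2-positive than in untreated PDL2-negative cells.

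In the lower steps, phosphoglycerate kinase yields ATP and enolase forms phosphoenolpyruvate. Pgk1 had signals of 13.01 in LPS-stimulated cells, 12.51 in PDL2-positive cells and 12.95 in untreated PDL2-negative cells and passed 2-fold in no comparison. Pgam1, a phosphoglycerate mutase, had 12.11 in LPS-stimulated cells, 10.68 in PDL2-positive cells and 12.34 in untreated PDL2-negative cells, and was 3.15-fold lower in PDL2-positive cells. Close relatives and processed copies of such housekeeping genes can share probes, and Pgam1, like Ldha, was read by a single probe set.

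The enolase genes measured ran opposite to most of the group. Eno3, the enolase of muscle, had signals of 5.97 in LPS-stimulated cells, 10.40 in PDL2-positive cells and 6.24 in untreated PDL2-negative cells, which is 17.9-fold higher in PDL2-positive than in untreated PDL2-negative cells. Eno2, the enolase of neurons, had 8.84 in PDL2-positive cells and was at the floor in LPS-stimulated and in untreated PDL2-negative cells, so that it was at least 9.62-fold higher in PDL2-positive cells. Each was read by 1 probe set. Neither was called higher with LPS: Eno3 differed by -0.26 on the log2 scale and Eno2 had no signal above the floor to compare. Eno1, the enolase of most tissues, was not analysed here, so these values do not give the enolase total.

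Lactate dehydrogenase joins A and B subunits, of which A favours lactate formation. Ldha had signals of 12.14 in LPS-stimulated cells, 10.87 in PDL2-positive cells and 12.63 in untreated PDL2-negative cells, and Ldhb had 8.94, 8.08 and 9.54 in the same order. Both were lower in PDL2-positive than in untreated PDL2-negative cells, by 3.39-fold and 2.76-fold, and all 4 Ldhb probe sets agreed on a decrease (-2.02 to -1.46 on the log2 scale). Slc16a1, which encodes the monocarboxylate transporter MCT1, had 10.24 in LPS-stimulated cells, 8.68 in PDL2-positive cells and 7.76 in untreated PDL2-negative cells, and was 5.59-fold higher with LPS. Slc16a3, which encodes MCT4, the exporter of highly glycolytic cells, had 8.89 in LPS-stimulated cells, 7.68 in PDL2-positive cells and 8.65 in untreated PDL2-negative cells. The MCT4 gene passed 2-fold only between PDL2-positive and LPS-stimulated cells (2.31-fold lower in PDL2-positive cells), and its difference from untreated PDL2-negative cells was -0.97.

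Pyruvate dehydrogenase kinases switch off pyruvate dehydrogenase, the enzyme complex that uses pyruvate inside mitochondria. Pdk1, a HIF target, had signals of 8.22 in LPS-stimulated cells, 7.25 in PDL2-positive cells and 8.56 in untreated PDL2-negative cells, and was 2.47-fold lower in PDL2-positive cells. Its probe sets above the floor agreed there (-1.51 to -1.30 on the log2 scale) but ran from -1.76 to -0.33 after LPS. With the floor at the 75th percentile the PDL2-positive difference of Pdk1 was bounded only at -0.75 or lower. Pdk2 and Pdk3 passed 2-fold in no comparison. Their largest differences were 0.76 for Pdk2, between PDL2-positive and LPS-stimulated cells, and -0.31 for Pdk3 in the same comparison.

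Of the pentose phosphate enzymes, G6pdx, the entry step, was not analysed here. Pgd, the second NADPH-forming enzyme of the pathway, had signals of 13.32 in LPS-stimulated cells, 11.26 in PDL2-positive cells and 13.21 in untreated PDL2-negative cells. It was 3.84-fold lower in PDL2-positive than in untreated PDL2-negative cells, with all 4 probe sets between -2.30 and -1.76. Taldo1 (transaldolase) had 12.55, 11.77 and 13.03 in LPS-stimulated, PDL2-positive and untreated PDL2-negative cells, and was 2.38-fold lower in PDL2-positive cells. Tkt (transketolase) had 12.64, 12.66 and 13.42 in the same order and stayed under 2-fold. No pentose phosphate member passed 2-fold after LPS, where Pgd differed by 0.11 on the log2 scale.

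Hif1a, the oxygen-regulated HIF subunit, had signals of 12.68 in LPS-stimulated cells, 11.73 in PDL2-positive cells and 11.27 in untreated PDL2-negative cells. It was 2.67-fold higher with LPS, and its 4 probe sets ranged from 1.42 to 2.36 on the log2 scale, while PDL2-positive cells differed from untreated PDL2-negative cells by 0.46. Epas1, which encodes HIF-2alpha, stayed at the floor. Egln3, a prolyl hydroxylase gene and HIF target, had 6.58 in LPS-stimulated cells, 5.64 in PDL2-positive cells and 6.96 in untreated PDL2-negative cells, all near the floor. The 2.49-fold decrease of Egln3 in PDL2-positive cells rests on 1 of its 2 probe sets, since the other was below the floor in PDL2-positive cells and close to it in untreated PDL2-negative cells. Egln1, the main oxygen sensor of the family, and Bnip3, a HIF target that drives removal of mitochondria, passed 2-fold in no comparison, with differences between -0.58 and 0.48 for Egln1 and between -0.82 and -0.05 for Bnip3.

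Probe sets of the same gene were compared where there were several. Of the 18 members called in PDL2-positive against untreated PDL2-negative cells, 11 had 2 or more probe sets above the floor. In 10 of these all probe sets had the same direction, Pfkl being the exception, and in 7 all were past 2-fold. After LPS, 6 of the 8 called members had 2 or more such probe sets; all agreed in direction, and in 4 all were past 2-fold, the exceptions being Slc2a3 and Aldoc. Where a probe set lay below the floor on 1 array, as for Slc2a3 and Egln3, its difference is only a bound, so it could miss 2-fold here without the signals being shown to differ by less. The second Aldoc probe set was above the floor on both arrays of the LPS comparison, so its -0.83 there is a measured difference under 2-fold. Its bound in PDL2-positive against untreated PDL2-negative cells (-2.53 or lower) passed 2-fold. Of the brightest probe sets of the 34 measured members, 4 are of the "_x_at" and 1 of the "_s_at" design, whose oligonucleotides can match more than 1 gene; among the called members these are Hk3, Pgd and Slc2a3.

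**Figure D3:**
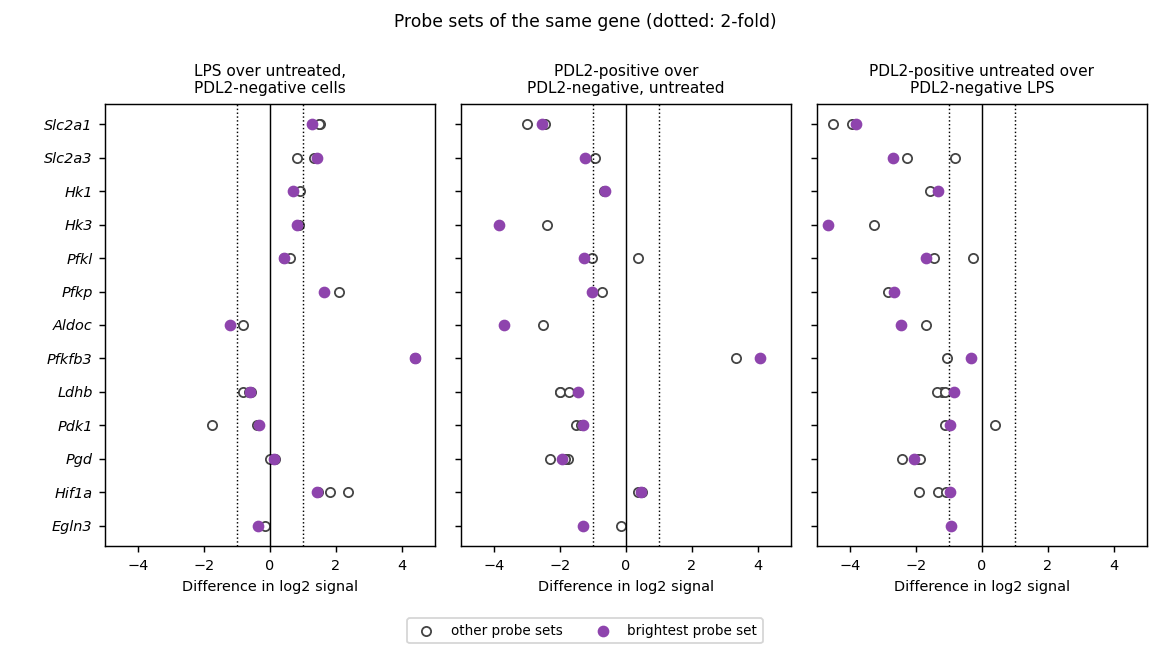
Difference in log2 signal (horizontal axis) for every probe set above the floor in the comparison, for the 13 members that passed 2-fold in at least 1 comparison and had 2 or more such probe sets; filled points are the brightest probe set, used for the gene, and points of Slc2a3, Aldoc and Egln3 that rest on a signal below the floor are bounds. The points of a gene lie on the same side of 0 except for Pfkl in the middle panel and Pdk1 in the right panel.

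The neighbouring pathway genes were read from 7 lists that do not overlap with the members. The list counts stand beside these shares of all genes tested: after LPS 9.17% were higher and 13.8% lower by 2-fold. In PDL2-positive cells 10.1% were higher and 13% lower against untreated PDL2-negative cells, and 15.6% and 12.6% against LPS-stimulated cells. With so few genes in a list, a difference from these shares was not tested. Of 10 other glycolysis genes measured, 7 were above the floor; 1 was lower after LPS (median -0.25 on the log2 scale), 1 was lower in PDL2-positive than in untreated PDL2-negative cells (median -0.10), and 1 was higher in PDL2-positive than in LPS-stimulated cells (median -0.11). Pkm, which encodes pyruvate kinase, had signals of 12.70 in LPS-stimulated cells, 11.73 in PDL2-positive cells and 13.15 in untreated PDL2-negative cells, and was 2.67-fold lower in PDL2-positive than in untreated PDL2-negative cells. Bpgm, which makes 2,3-bisphosphoglycerate, was at the floor with LPS, at least 2.49-fold below untreated cells. Gapdh was read here only from control probe sets, whose 3′ set gave deposited log2 signals of 13.68 in LPS-stimulated cells, 13.72 in PDL2-positive cells and 13.95 in untreated PDL2-negative cells.

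All 5 other pentose phosphate genes measured were above the floor, and 2 of them were lower after LPS (median -0.99 on the log2 scale). In PDL2-positive cells 1 was lower against untreated PDL2-negative cells (median -0.13), and 2 were higher and 1 was lower against LPS-stimulated cells (median 0.42). H6pd, the enzyme of the endoplasmic reticulum that starts the same pathway, had signals of 8.71 in LPS-stimulated cells, 6.79 in PDL2-positive cells and 9.03 in untreated PDL2-negative cells, and was 4.74-fold lower in PDL2-positive than in untreated PDL2-negative cells. Like Pgd, H6pd had its lowest signal in PDL2-positive cells. Prps2, which makes phosphoribosyl pyrophosphate from the ribose product, was 4.95-fold lower after LPS, but its probe sets ran from -2.31 to -0.30 on the log2 scale. Pgls, a lactonase of the pathway, was 2.07-fold lower after LPS and read by 1 probe set.

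Of the genes for the entry of pyruvate into mitochondria and for its use there by pyruvate dehydrogenase, 8 were above the floor. After LPS 2 of them were lower (median -0.60 on the log2 scale), and in PDL2-positive cells 1 was lower against untreated PDL2-negative cells (median -0.63) and 1, Dld, was lower against LPS-stimulated cells (median -0.00). Pdp1, a phosphatase that switches pyruvate dehydrogenase on, had signals of 6.13 in LPS-stimulated cells and 6.32 in PDL2-positive cells, against 9.04 in untreated PDL2-negative cells. That is a difference of -2.91 with LPS and of -2.71 in PDL2-positive cells, and a second probe set was above the floor only in untreated PDL2-negative cells. Pdha1, the catalytic subunit gene of pyruvate dehydrogenase, was 2.30-fold lower with LPS, although its second probe set gave -0.63 on the log2 scale, under 2-fold. Pdk4 was at the floor on every array.

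Of 5 other HIF regulators measured, 0 passed 2-fold after LPS (median 0.15 on the log2 scale) and 1 was higher in PDL2-positive cells, both against untreated PDL2-negative cells (median 0.03) and against LPS-stimulated cells (median -0.14). That gene was Vhl, whose product recognizes hydroxylated HIF and sends it for destruction. Vhl had signals of 8.39 in LPS-stimulated cells, 11.60 in PDL2-positive cells and 8.83 in untreated PDL2-negative cells. It was 6.82-fold higher in PDL2-positive than in untreated PDL2-negative cells, with both probe sets between 2.73 and 2.77 on the log2 scale. Arnt, the partner subunit, Hif3a, Egln2 and Hif1an stayed under 2-fold in all 3 comparisons.

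Other HIF target genes with a signal over the floor went both ways. With LPS, 4 of 16 such genes were higher by 2-fold and 3 lower (median 0.20 on the log2 scale). In PDL2-positive cells, 3 of 15 were higher and 5 were lower against untreated PDL2-negative cells (median -0.39), and 4 of 16 were higher and 6 were lower against LPS-stimulated cells (median -0.09). Ddit4, an inhibitor of mTORC1 that also answers to other stresses, had signals of 8.85 in LPS-stimulated cells and 9.98 in PDL2-positive cells, against 5.68 in untreated PDL2-negative cells. Its differences of 3.17 with LPS and 4.30 in PDL2-positive cells start from a signal close to the floor. Like Pfkfb3, Ddit4 was thus low only in untreated PDL2-negative cells.

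P4ha1, a collagen prolyl hydroxylase subunit, had signals of 9.94 in LPS-stimulated cells, 6.71 in PDL2-positive cells and 8.46 in untreated PDL2-negative cells, the same order as Slc2a1. Hmox1, which degrades haem, had 12.52 in LPS-stimulated cells, 8.11 in PDL2-positive cells and 10.36 in untreated PDL2-negative cells, again in that order. Hilpda, a lipid droplet protein, was 3.71-fold lower in PDL2-positive than in untreated PDL2-negative cells. Ak4, an adenylate kinase of mitochondria, was 6.94-fold higher after LPS, with probe sets from 0.08 to 2.80 on the log2 scale, and at the floor in PDL2-positive cells. Mxi1, an antagonist of Myc, was 5.23-fold lower after LPS and 10.2-fold higher in PDL2-positive than in LPS-stimulated cells.

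**Figure D4:**
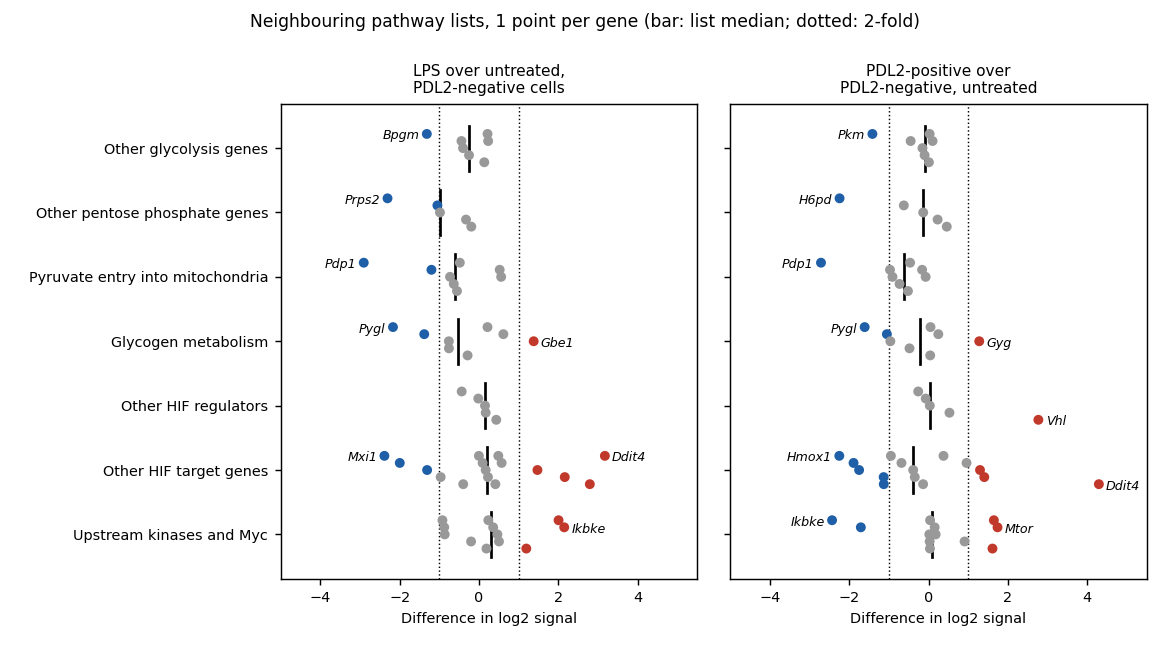
Difference in log2 signal (horizontal axis) for genes of the 7 neighbouring lists in the LPS comparison (left) and the comparison of PDL2-positive with PDL2-negative untreated cells (right), with 1 point per gene, a bar at each list median, and names at the outermost genes past 2-fold. The pyruvate list has a median of -0.60 on the left and -0.63 on the right with Pdp1 outermost in both, and Vhl and Ddit4 stand to the right in the right panel.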

How the data were processed

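RNA of 3 sorted cell populations was hybridized, 1 array per group, with biotin label, per the labels' protocols. The values the authors deposited are log2 signals, 1 per probe set and array, as their range shows; background correction and summary method are not given in the sources used here. From these, 13 control probe sets of 38546 were left out and the other 38533 were quantile-normalized over the 3 arrays, because the deposited 75th percentiles differed (7.68 with LPS, 7.84 in PDL2-positive and 7.90 in untreated PDL2-negative cells). Of these, 33974 name 1 gene in the platform annotation, 449 name several and were not used, and 4110 carry no gene name there. For 33787 probe sets the symbol was brought up to date by Entrez number. A gene was its brightest probe set. Values under the floor (the median of all values) were raised to it, and a gene was tested if above it on at least 1 of the 2 arrays. Members with 2-fold differences were named with all values, and neighbouring lists with at most 4 genes a comparison. The steps were tested on simulated data. The members and lists were chosen with earlier results of these data known. Alternatives changed the normalization, the floor, the choice of probe set and the size rule. Python 3.11.15, numpy 2.4.6 and pandas 2.3.3 were used.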

Additional observations from a re-analysis of the deposited data

How the results depend on the processing

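No paired analysis was possible because each group had 1 array. No called member changed sign under any of the 7 alternatives in any comparison. With the deposited values, and likewise with median centring, 2 members were lower after LPS in place of 1, the added gene being Pfkfb4, and Hk2 passed 2-fold (1.02 with the deposited values). Slc16a3 (-1.01) then passed 2-fold in PDL2-positive against untreated PDL2-negative cells, and Hif1a (-1.02) in PDL2-positive against LPS-stimulated cells. At 1.5-fold, 6 members were lower after LPS and 5 were higher in PDL2-positive than in untreated PDL2-negative cells, where 24.6% of all genes were lower after LPS and 17.7% were higher in PDL2-positive cells. At 3-fold, 4 were higher and 0 were lower after LPS, 8 were lower in PDL2-positive than in untreated PDL2-negative cells and 9 were lower in PDL2-positive than in LPS-stimulated cells; of all genes, 5.28% were higher and 5.87% lower by 3-fold after LPS, 7.35% were lower in PDL2-positive than in untreated PDL2-negative cells, and 883 of 11042 were lower in PDL2-positive than in LPS-stimulated cells. Averaging probe sets took Pfkl (-0.65) and Pfkp (-0.88) under 2-fold and left Egln3 uncalled (-0.77 or lower, its PDL2-positive mean being below the floor) in the comparison of untreated PDL2-positive with PDL2-negative cells, and a floor at the 75th percentile left only bounds for Slc2a3 (-0.62 or lower) and Pdk1 (-0.75 or lower), since their PDL2-positive signals then lie at the floor; Egln3 could not be compared there, as 29 members were above that floor. The number of arrays and signals close to the floor, as for Egln3 and Ddit4, limit the precision.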

Other observations

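Kinases upstream of glycolysis with their partner proteins and regulators, Myc genes, and glycogen enzymes were listed beside the members. In the list of kinases, their partners and regulators, and Myc genes, 12 genes had a signal over the floor. LPS-stimulated cells had 3 of them higher by 2-fold and 0 lower (median 0.30 on the log2 scale), untreated PDL2-positive cells had 3 higher and 2 lower than untreated PDL2-negative cells (median 0.10), and 3 higher and 3 lower than LPS-stimulated cells (median -0.12). Ikbke and Tbk1 encode kinases that act downstream of Toll-like receptors. Ikbke was 4.44-fold higher with LPS and 5.40-fold lower in PDL2-positive cells, each against untreated PDL2-negative cells, where its log2 signal was 8.85. Tbk1 had 11.66 in LPS-stimulated cells, 10.49 in PDL2-positive cells and 10.47 in untreated PDL2-negative cells. Rictor, a subunit of mTORC2, was 4.02-fold higher with LPS, and its 4 probe sets above the floor gave 1.81 to 2.13 on the log2 scale. Mtor, Rptor and Tsc1 were higher in PDL2-positive than in untreated PDL2-negative cells by 3.34-fold, 3.13-fold and 3.06-fold, although a second probe set of Mtor (0.30 on the log2 scale) and of Tsc1 (also 0.30) stayed under 2-fold, and that of Rptor was below the floor in untreated PDL2-negative cells. Myc, an activator of glycolysis genes, had 6.53 in LPS-stimulated cells, 5.75 in PDL2-positive cells and 7.46 in untreated PDL2-negative cells.

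Glycogen genes went both ways. Gyg, which primes glycogen chains, had signals of 11.01 in LPS-stimulated cells, 13.67 in PDL2-positive cells and 12.39 in untreated PDL2-negative cells, so that it was 2.61-fold lower with LPS and 2.43-fold higher in PDL2-positive cells, and its second probe set gave -1.29 and 1.55 on the log2 scale. Pygl, a phosphorylase that breaks glycogen down, had 9.54 in LPS-stimulated cells and 10.10 in PDL2-positive cells, against 11.71 in untreated PDL2-negative cells. Gbe1, the branching enzyme, was 2.60-fold higher with LPS, and Pgm2, a phosphoglucomutase gene, was 2.07-fold lower in PDL2-positive than in untreated PDL2-negative cells. Pygb, another phosphorylase, was 2.01-fold higher in PDL2-positive than in LPS-stimulated cells. Of 8 glycogen genes with a signal over the floor, 1 was higher and 2 were lower after LPS (median -0.52) and likewise in PDL2-positive against untreated PDL2-negative cells (median -0.22), and 2 were higher and 1 was lower in PDL2-positive against LPS-stimulated cells (median -0.23).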
